A study of Mus musculus with 17 samples.

Results

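The vacuolar proton pump (V-ATPase) and the machinery that docks and activates the kinase complex mTORC1 on the lysosome were examined as a group of 30 genes in mouse bone marrow-derived macrophages. The genes were taken by name from a list of pump subunits, Ragulator subunits, small GTPases and mTORC1 subunits. That list was chosen with earlier results of these data known. All 30 names were found among the 37620 gene rows of the table. They comprise 8 subunits of the V1 sector, 7 of the V0 sector, 2 accessory proteins of the pump, 5 Ragulator subunits, 4 GTPases with the regulator Flcn, and 3 subunits of mTORC1.

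Smad3 is a transcription factor that relays signals of transforming growth factor beta (TGF-β) into the nucleus. The study asks which genes need it when TGF-β1 turns macrophages towards myofibroblast-like cells. Marrow cells of C57BL/6J mice were grown for 7 days in medium with 10% serum and the macrophage growth factor M-CSF at 50 ng/ml. TGF-β1 was used at 5 ng/ml for 5 days. By their titles, 9 libraries come from wild-type cells (5 controls and 4 with TGF-β1) and 8 from cells labelled as Smad3 knockout (5 controls and 3 with TGF-β1). Controls and treated libraries carry one and the same treatment text, so how long control cells were cultured is unclear. The sources used here do not give the allele of the knockout, the age of the mice, or the animal or culture behind a library. The design text describes a flow sort by smooth muscle actin and F4/80, but no label ties a library to a sorted fraction.

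Macrophage markers were present in each group, with the lysosomal protein Cd68 and the lysozyme gene Lyz2 among them. Mertk, another marker of the 7 read, reached 1 TPM in 6 of the 17 libraries and in no wild-type library with TGF-β1. Of markers of other cell types, the 5 for lymphocytes were at 0 in the 17 libraries, the endothelial marker Kdr reached 1 TPM in 10 libraries (at most 27.1 TPM), and the neutrophil marker S100a8 in 3 (132 TPM in wild-type control 4 and 34.6 TPM in labelled-knockout control 5). Summed fibroblast, dendritic, erythroid and mast cell markers reached at most 9.72, 5.25, 4.64 and 11.0 TPM. The labels of the knockout were not borne out by the targeted gene: Smad3 reached 1 TPM (a level corrected for transcript length and scaled to the same total in each library) in 2 of 9 wild-type and 3 of 8 knockout libraries. These 8 libraries are therefore called labelled knockout, and each direction between genotypes below rests on the labels. Acta2, the smooth muscle actin gene, reached 1 TPM in 1 wild-type TGF-β1 library and 1 labelled-knockout control library. Each library had 7269 to 10307 genes at 1 TPM or more. The median correlation across genes was 0.849 between libraries of a group and 0.838 between libraries of different groups. In 6 libraries over 10% of genes of moderate level were listed at 0: wild-type control 3, 4 and 5, wild-type TGF-β1 3, and replicate 2 of each labelled-knockout group. The depth of a library cannot be read from TPM and is unknown. The series is titled as single-cell sequencing, but the extraction text describes a column kit for many cells, so a library may be 1 cell or many. If it is 1 cell, the zeros and the spread in a group are those of single cells and n counts cells. The p-values speak for the spread among these libraries alone, which may be technical.

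The V-ATPase acidifies lysosomes, endosomes and phagosomes. Its cytosolic V1 sector splits ATP and turns a rotor, which drives protons through the V0 sector in the membrane. The pump also takes part in sensing amino acids: it contacts the Ragulator complex, which anchors heterodimers of Rag GTPases to the lysosome. Active Rag GTPases recruit mTORC1, and the GTPase Rheb then switches the kinase on. Osteoclasts, which share a precursor with macrophages, carry large amounts of pump in their resorbing membrane.

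Ragulator transcripts and those of the pump, other than Atp6v0a2, were abundant and present in each library, while Atp6v0a2, the Rag GTPases and the mTORC1 subunits were low. By the median of the 17 libraries, the highest member was Atp6v0c, the proton-carrying c subunit of the rotor ring, at 1356 TPM. Atp6v0b, which codes for the related c'' subunit of that ring, followed at 863 TPM. Atp6v1g1, a subunit of the peripheral stalk that holds the V1 head still, had a median of 606 TPM. Next came the central-stalk subunit Atp6v1f at 538 TPM, the small membrane subunit Atp6v0e at 530 TPM and the accessory protein Atp6ap1 at 527 TPM. These 3 medians differed by far less than the spread over libraries, which for Atp6v1f alone ran from 315 to 897 TPM.

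The middle of the order held the a3 subunit Tcirg1 at 422 TPM, the nucleotide-binding subunit Atp6v1b2 at 347 TPM, and the accessory protein Atp6ap2, also known as the prorenin receptor, at 315 TPM. The stalk subunit Atp6v1e1 had a median of 285 TPM. Lamtor1, the membrane anchor of Ragulator, had 247 TPM and Lamtor5 had 241 TPM. Atp6v1c1, which joins V1 to the membrane sector, had 225 TPM and the catalytic subunit Atp6v1a 214 TPM. Atp6v0d1, which couples the central stalk to the ring, had 202 TPM, Lamtor2 199 TPM and Atp6v1d 162 TPM. Rheb had 152 TPM, the regulatory subunit Atp6v1h 136 TPM, Lamtor3 120 TPM and Lamtor4 101 TPM. Neighbours in this order overlapped in their range over libraries.

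The lower end began with Atp6v0a1 at 78.7 TPM. Flcn, whose protein folliculin acts on the RagC and RagD GTPases, had a median of 37.8 TPM, Rraga 28.7 TPM and Rragc 23.2 TPM. The kinase gene Mtor had 12 TPM, Atp6v0a2 11.5 TPM and Rptor, the substrate-binding subunit, 10.9 TPM. Rragd had a median of 1.76 TPM and Mlst8, the remaining core subunit, 0.06 TPM. Mlst8 was listed at 0 in 7 libraries, Rragd in 3, and Atp6v0a2, Rragc and Mtor in 1 each. The summed mTORC1 core ranged from 0.66 TPM in wild-type control 4 to 100.8 TPM in wild-type control 2.

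The members can be divided by the level of their lowest library, which is not a measure of spread. In 22 of the 30 members each library was at 10 TPM or more, which held for 18.2% of the 12158 genes tested. At 100 TPM or more in each library were 13 members, against 4.80% of tested genes. The 8 members that dipped lower were Atp6v0a2, Rraga, Rragc, Rragd, Flcn, Mtor, Rptor and Mlst8. The narrowest spreads belonged to the rotor ring: Atp6v0b differed 1.87-fold between its lowest library (702 TPM) and its highest (1316 TPM), and Atp6v0c 1.95-fold (993 to 1939 TPM).

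**Figure D1:**
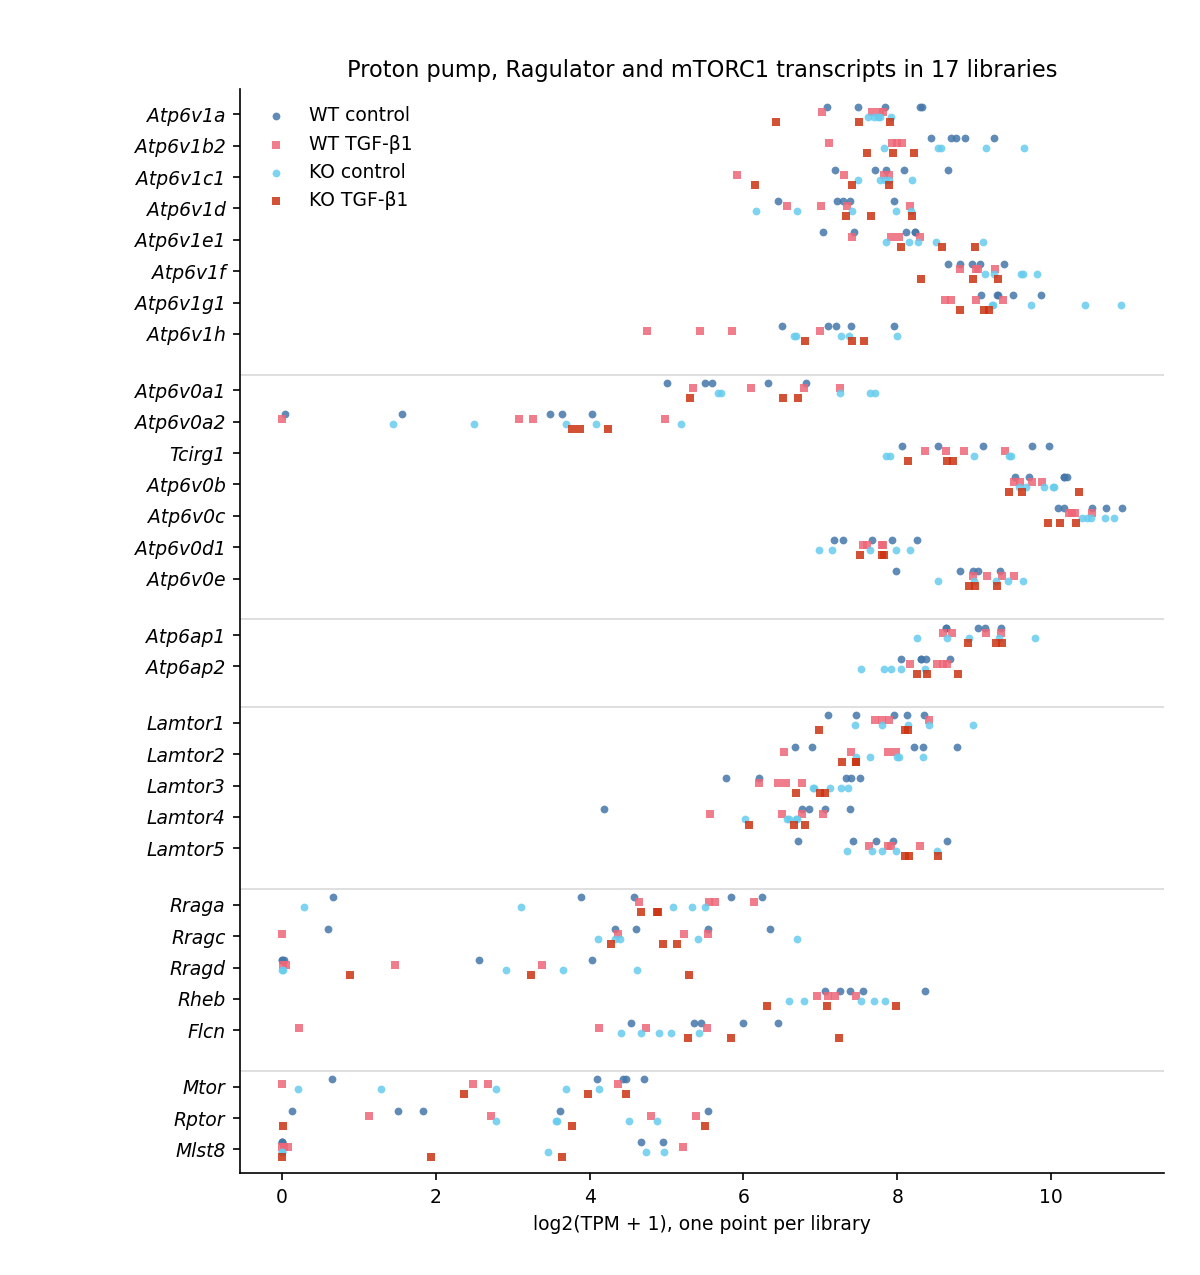
Level of each of the 30 genes as log2(TPM + 1) on the horizontal axis, with 1 point per library, coloured by group; grey lines part the roles, from V1 at the top to the mTORC1 core at the bottom. Most pump and Ragulator genes lie at the right, while Atp6v0a2, Rragd, Mtor, Rptor and Mlst8 scatter down to 0 or near it.

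No member was called in any of the 5 comparisons, with a call at a Benjamini-Hochberg adjusted p under 0.05 over the 12158 genes in limma's fit. All 30 members passed the filter of 1 TPM in at least 3 libraries, so all were tested. TGF-β1 against control in wild type called 22 genes of the whole table, or 0.181%. The same comparison in labelled knockout called 1 gene, or 0.00823%, and the difference of the TGF-β1 effects called 0, or 0%. Labelled knockout against wild type called 18 genes in controls, or 0.148%, and 19 with TGF-β1, or 0.156%. With backgrounds this low, 0 of 30 does not set the members apart from other genes.

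At an unadjusted p under 0.05, TGF-β1 in wild type gave 0 members higher and 3 lower (Atp6v1h, Atp6v1b2 and Flcn), where 6.7% of all tested genes were higher and 3.27% lower. In labelled knockout, 0 members were higher and 4 lower (Atp6v1g1, Atp6v1f, Atp6v1b2 and Atp6v0c), against 3.73% and 2.2% of all genes. The median difference of log2(TPM + 1) over the 30 members was -0.12 in wild type and -0.13 in labelled knockout, where the median of all tested genes was 0.09 and 0.07. In wild type 17 of the 30 differences lay below 0, or 56.7%, against 45.9% of all genes. In labelled knockout 18 lay below 0, or 60%, against 46.7%. Of 16 abundant, widely expressed genes such as Actb and Gapdh, 37.5% lay below 0 in wild type and 62.5% in labelled knockout. Their medians were 0.08 and -0.14, so in labelled knockout the members were close to these genes. The comparisons in the 2 genotypes share no library. In 12 members (40%) the difference was below 0 in both genotypes, which was so for 24.9% of tested genes, and in 7 members (23.3%) it was above 0 in both, against 32.1%. These shares describe a list chosen with earlier results known and carry no test.

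**Figure D2:**
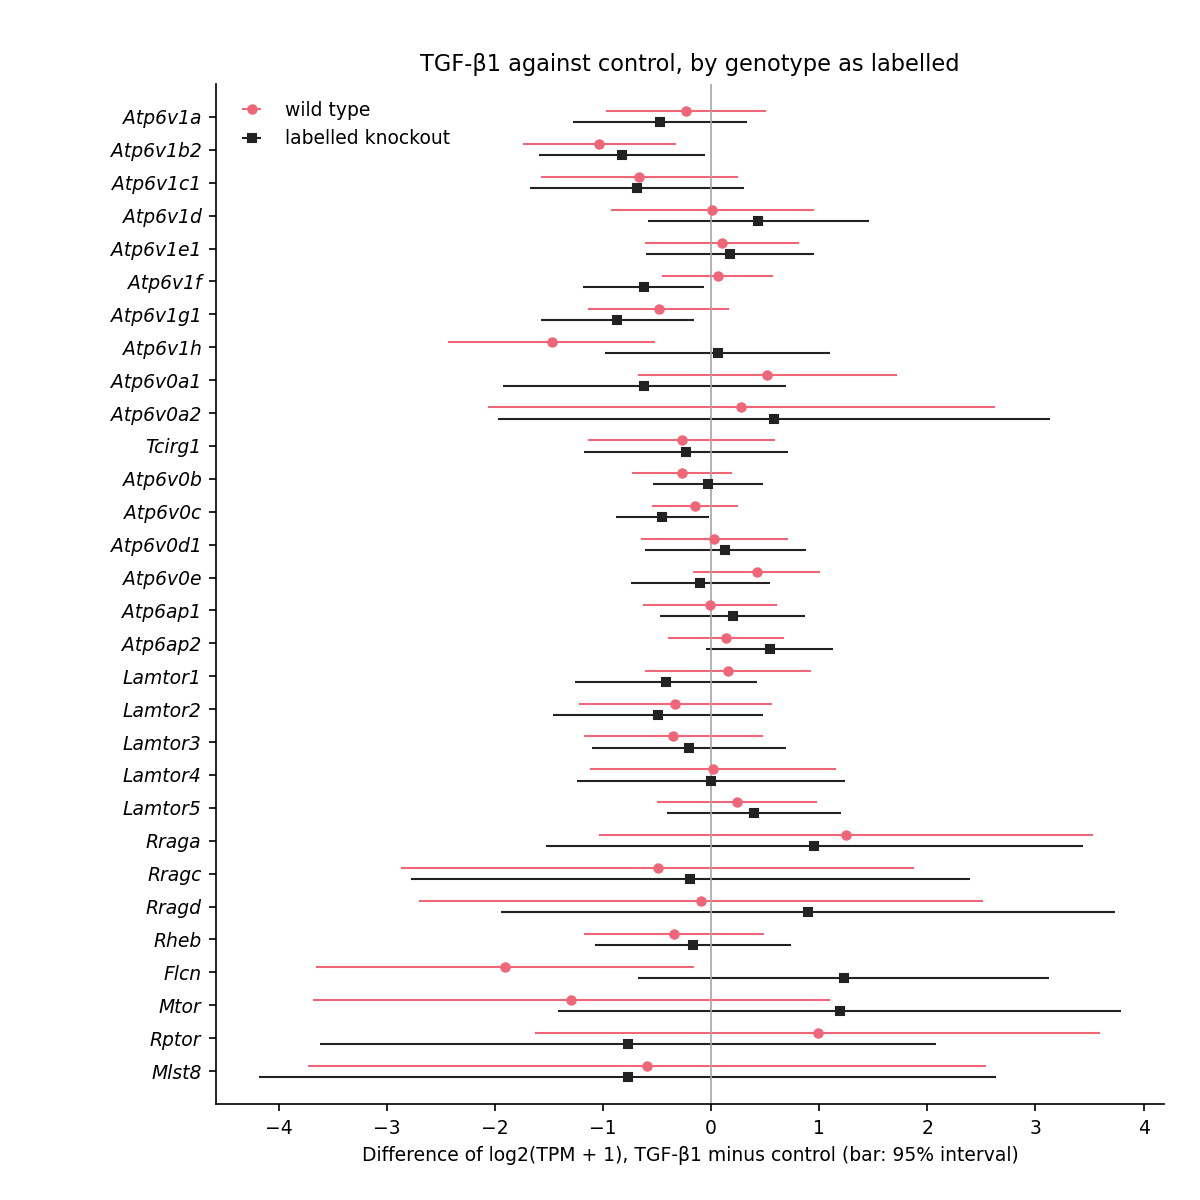
Difference of log2(TPM + 1), TGF-β1 minus control, for each gene (points) with its 95% interval (bars), in wild type (circles) and labelled knockout (squares). The bars are longest for Atp6v0a2, Flcn, the Rag GTPases and the mTORC1 core; for Atp6v1b2 both bars lie below 0, at -1.03 and -0.82, but neither difference passed after adjustment.

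The libraries with TGF-β1 also differed from controls in a marker list of another process. The mean log2(TPM + 1) of 24 cell cycle genes was 7.24 to 7.72 in wild-type TGF-β1 and 3.06 to 7.19 in wild-type control. It was 7.30 to 7.77 in labelled-knockout TGF-β1 and 4.63 to 7.24 in labelled-knockout control. Of the 24 genes, 23 were higher with TGF-β1 in either genotype and 0 were called. In neither genotype did that mean overlap between treated libraries and controls, so it cannot be told apart from TGF-β1. With that mean as a covariate, the median difference of the members was -0.003 in wild type and -0.05 in labelled knockout, still with 0 members called. The median of all tested genes moved as well, from 0.09 to 0.02 in wild type and from 0.07 to 0.02 in labelled knockout. That fit cannot separate the cell cycle from TGF-β1, and the part of the cell cycle in these values was not tested. Where a library holds many cells, fewer cells of a type and less RNA per cell cannot be told apart.

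Of the members lower with TGF-β1 at an unadjusted p under 0.05, 2 of 3 in wild type and 3 of 4 in labelled knockout belonged to the V1 sector. Among all tested genes 3.27% and 2.2% were lower at that threshold. The V1 sector holds 8 of the 30 members. Its 8 transcripts summed to 2467, 2648, 3379, 2882 and 2120 TPM in wild-type control and to 1950, 2521, 1933 and 1957 TPM with TGF-β1. They summed to 2586, 4357, 3973, 2940 and 3123 TPM in labelled-knockout control and to 2347, 2032 and 2666 TPM with TGF-β1. Group means were 2699 ± 471 (SD, n = 5), 2090 ± 287 (SD, n = 4), 3396 ± 741 (SD, n = 5) and 2348 ± 317 TPM (SD, n = 3), in that order. In both genotypes 1 treated library lay within the range of its controls, so the groups overlapped. The median difference of the 8 subunits was -0.36 in wild type and -0.55 in labelled knockout. In each, 5 of 8 (62.5%) lay below 0, against 56.7% and 60% of the 30 members. Atp6v1a, Atp6v1b2, Atp6v1c1 and Atp6v1g1 were below 0 in both, and Atp6v1d and Atp6v1e1 were above 0 in both. The sum gives most weight to abundant genes. Atp6v1g1 alone had means of 1074 TPM in labelled-knockout control and 531 TPM in labelled-knockout TGF-β1.

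Atp6v1b2 (ENSMUSG00000006273) codes for the B subunit found in most tissues, which alternates with the catalytic A subunit in the V1 head. Wild-type controls were at 470, 612, 432, 413 and 347 TPM, and wild-type libraries with TGF-β1 at 243, 253, 137 and 266 TPM. The 4 treated libraries lay below the 5 controls without overlap, at means of 225 ± 59.3 against 455 ± 98.4 TPM (SD). The difference was -1.03 ± 0.34 (SE) on the log2 scale, with a 95% interval of -1.74 to -0.33, an unadjusted p of 0.00623 and an adjusted p of 0.286. Over the alternative settings it ran from -1.16 to -0.81, with adjusted p from 0.214 to 0.60. Atp6v1b2 was the 1 member without overlap in wild type. Among all tested genes 0.987% lay lower and 1.8% higher without overlap in this comparison.

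In labelled knockout, Atp6v1b2 stood at 378, 226, 568, 367 and 803 TPM in controls and 297, 194 and 245 TPM with TGF-β1. The second control lay inside the treated range. The difference was -0.82 ± 0.37 (SE), with an unadjusted p of 0.0375 and an adjusted p of 0.813. The difference between the 2 genotypes' effects was 0.21 ± 0.50 (SE, 95% interval -0.83 to 1.26, adjusted p = 0.997).

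Atp6v1h (ENSMUSG00000033793) codes for the H subunit, which couples ATP splitting to proton flow and silences V1 when it is detached from the membrane. Wild-type controls were at 136, 146, 167, 247 and 89.9 TPM, and wild-type libraries with TGF-β1 at 42.2, 126, 25.8 and 56.8 TPM. Treated libraries 1, 3 and 4 lay below the lowest control and library 2 lay among the controls. Its difference, -1.48 ± 0.46 (SE, 95% interval -2.43 to -0.52), had the smallest p of the members in wild type (unadjusted p = 0.00429, adjusted p = 0.246). The difference was -1.14 without the third TGF-β1 library, and adjusted p over the alternatives ran from 0.118 to 0.592.

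Labelled-knockout libraries did not show a lower Atp6v1h, at 165, 101, 99.8, 255 and 153 TPM in controls and 188, 110 and 169 TPM with TGF-β1. The groups overlapped, and the difference was 0.06 ± 0.50 (SE, 95% interval -0.98 to 1.10). The effects in the 2 genotypes differed by 1.54 ± 0.68 (SE, 95% interval 0.13 to 2.95), with an unadjusted p of 0.0343 and an adjusted p of 0.997. A genotype difference for Atp6v1h thus failed the correction.

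Atp6v1g1 (ENSMUSG00000039105) showed its larger difference in labelled knockout. Controls there were at 606, 1920, 1392, 854 and 599 TPM, and treated libraries at 585, 450 and 558 TPM. The 3 treated libraries lay below the 5 controls, though the closest pair was 585 and 599 TPM, and the difference was -0.87 ± 0.34 (SE, unadjusted p = 0.0191, adjusted p = 0.75). Wild-type controls were at 626, 544, 936, 723 and 632 TPM and treated libraries at 413, 662, 393 and 520 TPM, with 1 treated library among the controls. That difference was -0.48 ± 0.31 (SE, adjusted p = 0.661).

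Atp6v1f (ENSMUSG00000004285) was highest in labelled-knockout controls, at 612, 897, 794, 561 and 780 TPM, against 503, 315 and 635 TPM with TGF-β1. The third treated library exceeded 2 of those controls. The difference was -0.62 ± 0.27 (SE, unadjusted p = 0.0315, adjusted p = 0.791), and -0.34 without the second treated library. Wild-type libraries were at 538, 501, 669, 405 and 451 TPM in controls and 448, 619, 522 and 531 TPM with TGF-β1, ranges that overlapped, with a difference of 0.06 ± 0.25 (SE). Between genotypes, labelled-knockout controls were 0.51 ± 0.23 (SE) above wild-type controls on the log2 scale, with an unadjusted p of 0.0424 and an adjusted p of 0.835.

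The remaining V1 subunits gave smaller or less regular differences. Atp6v1c1 (ENSMUSG00000022295) was at 209, 271, 405, 231 and 144 TPM in wild-type controls and 59.6, 237, 225 and 158 TPM with TGF-β1, so that 1 treated library stood below the controls. It was at 228, 179, 292, 217 and 237 TPM in labelled-knockout controls and 169, 70.1 and 236 TPM with TGF-β1. The differences were -0.66 ± 0.44 and -0.69 ± 0.47 (SE), with adjusted p of 0.671 and 0.889. Without the first wild-type TGF-β1 library, at 59.6 TPM, the wild-type difference was -0.22. Atp6v1a, the catalytic subunit, ranged from 135 to 318 TPM in wild-type controls and from 129 to 225 TPM with TGF-β1, for a difference of -0.23 ± 0.35 (SE). In labelled knockout its difference was -0.47 ± 0.39 (SE). Atp6v1d, part of the rotating central stalk, differed by 0.01 ± 0.45 in wild type and 0.44 ± 0.49 in labelled knockout (SE).

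Atp6v1e1 (ENSMUSG00000019210), a partner of the G subunit in the peripheral stalk, was named for its genotype comparisons. It was at 172, 275, 299, 298 and 130 TPM in wild-type controls and 285, 552, 361, 309 and 230 TPM in labelled-knockout controls. With TGF-β1 it was at 240, 258, 312 and 169 TPM in wild type and 265, 516 and 383 TPM in labelled knockout. The ranges overlapped in both, and the differences were 0.57 ± 0.32 and 0.64 ± 0.39 (SE), with adjusted p of 0.897 and 1. They were 0.38 without wild-type control 5 and 0.41 without the second labelled-knockout TGF-β1 library.

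**Figure D3:**
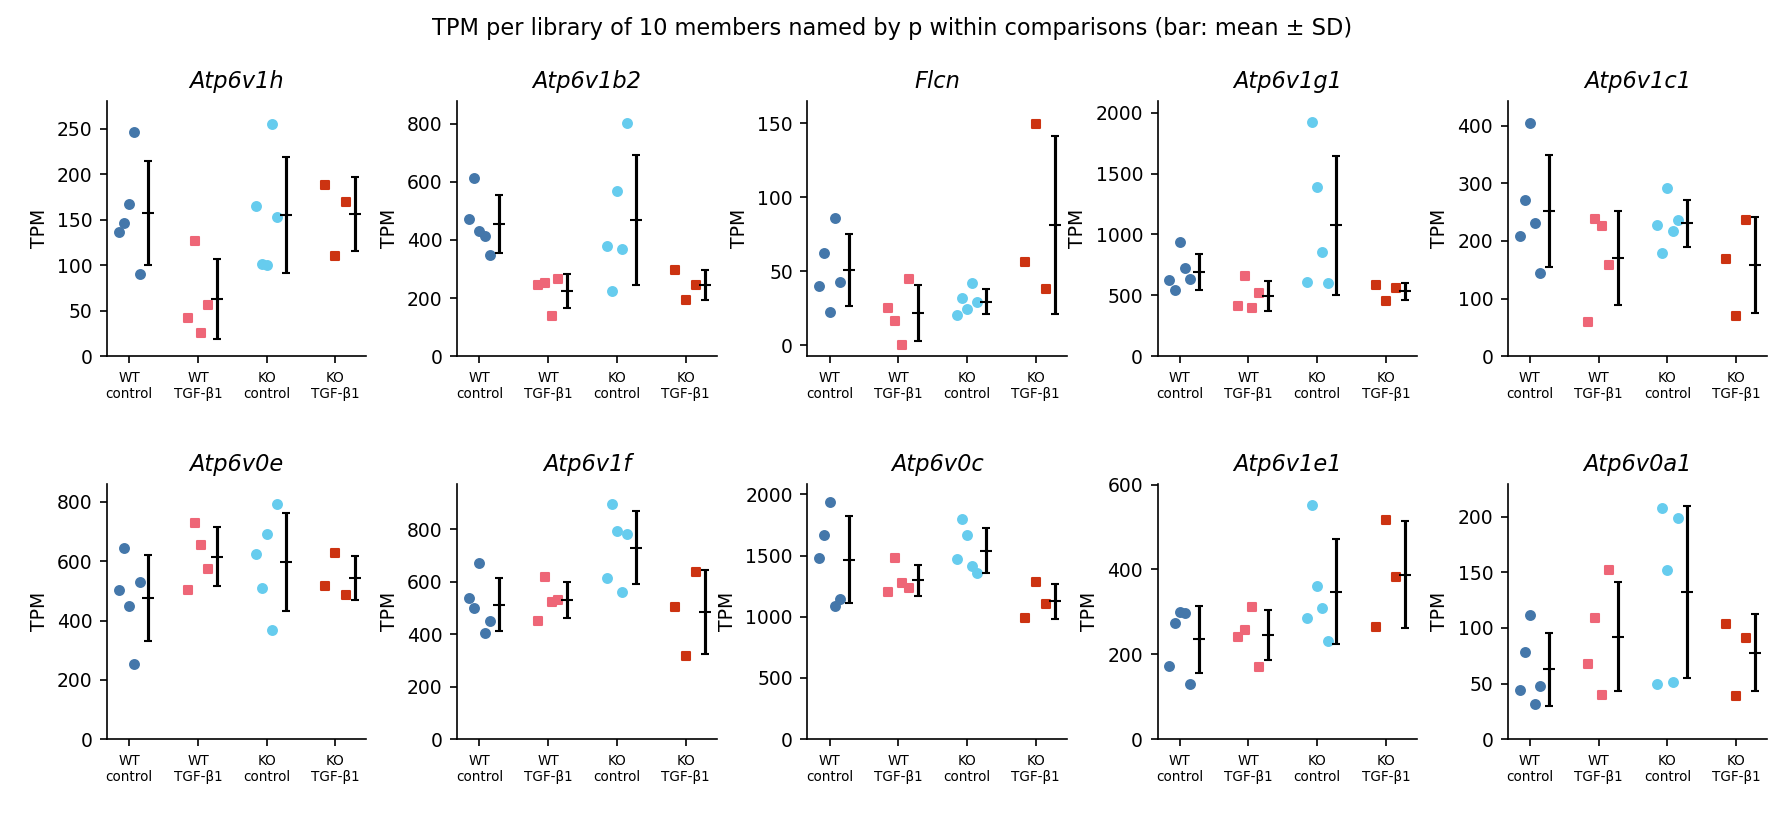
TPM in each library (points) with the mean and SD (bars) by group, for the 10 genes that rank first by unadjusted p within the 5 comparisons (the first 6, 4, 3, 3 and 3); the vertical scale differs between panels. Atp6v1b2 shows 4 treated wild-type libraries, at 137 to 266 TPM, under 5 controls at 347 to 612 TPM, while in the Flcn panel 1 treated wild-type library sits at 0.17 TPM.

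In the V0 sector the median difference with TGF-β1 over 7 subunits was 0.03 in wild type and -0.10 in labelled knockout, with 0 and 1 subunits at an unadjusted p under 0.05. Its summed level was 3843 ± 894 TPM in wild-type control, 3515 ± 256 for wild-type TGF-β1, 3888 ± 284 in labelled-knockout control and 3276 ± 231 in labelled-knockout TGF-β1 (SD). The c subunit Atp6v0c (ENSMUSG00000024121) was at 1479, 1672, 1939, 1090 and 1148 TPM in wild-type controls and 1199, 1483, 1273 and 1232 TPM with TGF-β1. These groups overlapped, with a difference of -0.15 ± 0.19 (SE). In labelled knockout it was at 1472, 1801, 1664, 1412 and 1356 TPM in controls and 993, 1280 and 1108 TPM with TGF-β1, without overlap. The difference there was -0.45 ± 0.21 (SE, 95% interval -0.88 to -0.02, unadjusted p = 0.0412, adjusted p = 0.820).

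Atp6v0c was 1 of 3 members whose treated libraries lay below the controls without overlap in labelled knockout, with Atp6v1g1 and Lamtor2. Of all tested genes 1.84% lay lower and 3.05% higher without overlap in that comparison. No member lay higher without overlap in either genotype.

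A near-identical pseudogene, Atp6v0c-ps2, complicates the c subunit, since RSEM divides reads among similar transcripts and the values of both genes are uncertain. The pseudogene was listed at 532 to 1259 TPM in wild-type libraries and 356 to 565 TPM in labelled-knockout libraries; it was singled out after its values were seen. Its difference between genotypes was -0.67 ± 0.22 in controls (SE, adjusted p = 0.631) and -0.89 ± 0.27 with TGF-β1 (SE, adjusted p = 0.496). Summed with Atp6v0c, the level was 2334 ± 636 TPM in wild-type control, 2035 ± 218 for wild-type TGF-β1, 2066 ± 214 in labelled-knockout control and 1524 ± 100 in labelled-knockout TGF-β1 (SD).

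Atp6v0e (ENSMUSG00000015575) was at 504, 644, 450, 252 and 530 TPM in wild-type controls and 504, 730, 656 and 573 TPM with TGF-β1. It was at 623, 510, 691, 370 and 793 TPM in labelled-knockout controls and 516, 627 and 486 TPM with TGF-β1. The ranges overlapped in both genotypes, and the differences were 0.42 ± 0.28 (SE, adjusted p = 0.678) and -0.10 ± 0.31 (SE, adjusted p = 0.989). The first was 0.21 without wild-type control 4. Atp6v0b differed by -0.27 ± 0.22 in wild type and -0.03 ± 0.24 in labelled knockout (SE). Atp6v0d1 differed by 0.03 ± 0.33 and 0.13 ± 0.36 (SE).

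The a subunit carries the proton half-channels and decides which membrane the pump is sent to. Tcirg1, the a3 isoform known from lysosomes and from the resorbing membrane of osteoclasts, made up 52.3% to 94.5% of the a-subunit TPM of a library, with a median of 85.9%. Atp6v0a1 made up 5.54% to 47.3% and Atp6v0a2, an isoform known from the Golgi, 0% to 5.30%. Tcirg1 was therefore the most abundant of the 3 isoforms in the 17 libraries. The lowest Tcirg1 shares, 52.3% and 53.0%, were those of labelled-knockout controls 2 and 5, while other controls of the same group reached 91.4%.

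Atp6v0a1 (ENSMUSG00000019302) was at 44.2, 78.7, 112, 31.2 and 47.3 TPM in wild-type controls and 49.7, 208, 152, 51.2 and 199 TPM in labelled-knockout controls. Labelled-knockout controls 2, 3 and 5 lay above the highest wild-type control and the other 2 among them. The difference was 0.95 ± 0.54 (SE, 95% interval -0.18 to 2.08, adjusted p = 0.899). With TGF-β1 it was at 67.5, 109, 39.6 and 152 TPM in wild type and 104, 38.6 and 90.8 TPM in labelled knockout, which overlapped. Tcirg1 differed by -0.27 ± 0.42 with TGF-β1 in wild type and -0.23 ± 0.45 in labelled knockout (SE), and Atp6v0a2 by 0.28 ± 1.12 and 0.58 ± 1.22 (SE).

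**Figure D4:**
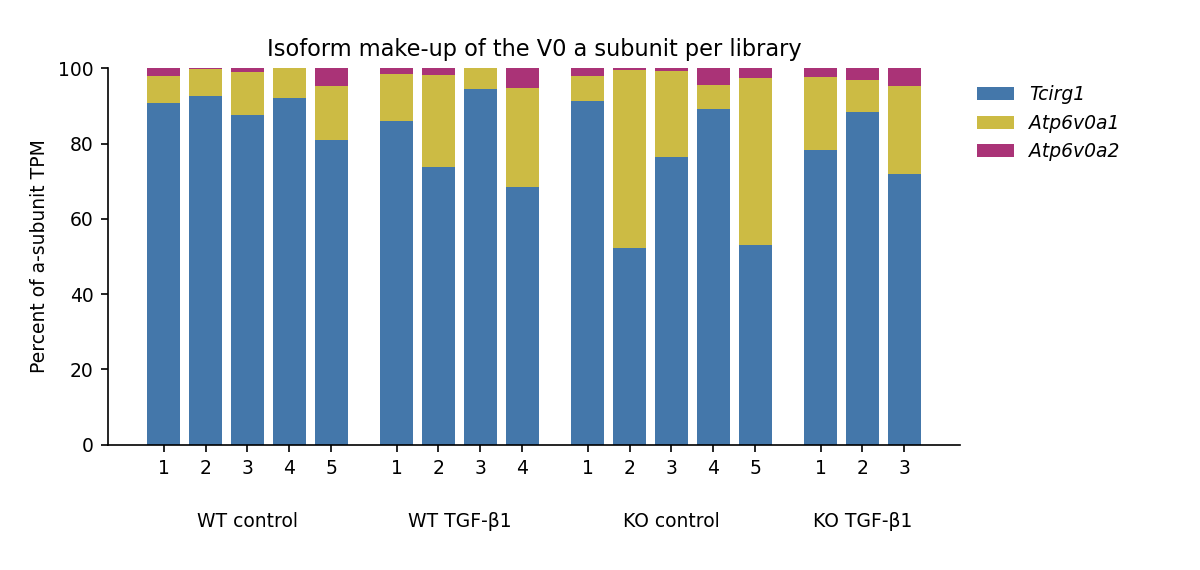
Share of the summed a-subunit TPM (percent, bars stacked to 100) from Tcirg1, Atp6v0a1 and Atp6v0a2, with 1 bar per library in the 4 groups. Tcirg1 takes the largest share in each bar, and labelled-knockout controls 2 and 5 stand out with shares of 52.3% and 53.0%.

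The accessory proteins Atp6ap1 and Atp6ap2, which help to assemble the pump, differed by -0.01 ± 0.29 and 0.14 ± 0.26 in wild type (SE). In labelled knockout they differed by 0.20 ± 0.32 and 0.54 ± 0.28 (SE), with adjusted p of 0.986 and 0.854. Atp6ap2 was at 327, 263, 241, 226 and 184 TPM in labelled-knockout controls and 304, 334 and 442 TPM with TGF-β1, with 1 treated library inside the range of the controls.

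Ragulator differences with TGF-β1 ran from -0.35 to 0.24 in wild type and from -0.49 to 0.40 in labelled knockout. Its 5 transcripts summed to 948 ± 91.5 TPM in wild-type control, 868 ± 152 for wild-type TGF-β1, 1018 ± 183 in labelled-knockout control and 916 ± 67.8 in labelled-knockout TGF-β1 (SD). Median differences with TGF-β1 were 0.02 in wild type and -0.20 in labelled knockout, and the smallest adjusted p of the 5 genes was 0.836 and 0.946. Lamtor2, which pairs with Lamtor3 inside the complex, was at 260, 176, 255, 199 and 321 TPM in labelled-knockout controls and 175, 155 and 175 TPM with TGF-β1. The treated libraries lay just below the controls, with 176 against 175 TPM at the edge, and the difference was -0.49 ± 0.47 (SE, adjusted p = 0.946). In wild type Lamtor2 ranged from 101 to 439 TPM in controls and from 91.2 to 252 TPM with TGF-β1, a difference of -0.33 ± 0.43 (SE). Lamtor1 differed by 0.16 ± 0.37 and -0.42 ± 0.40 (SE) in the 2 genotypes, and Lamtor5 by 0.24 ± 0.36 and 0.40 ± 0.39 (SE). Lamtor3 differed by -0.35 ± 0.40 and -0.20 ± 0.43 (SE), and Lamtor4 by 0.02 ± 0.55 and -0.005 ± 0.59 (SE).

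**Figure D5:**
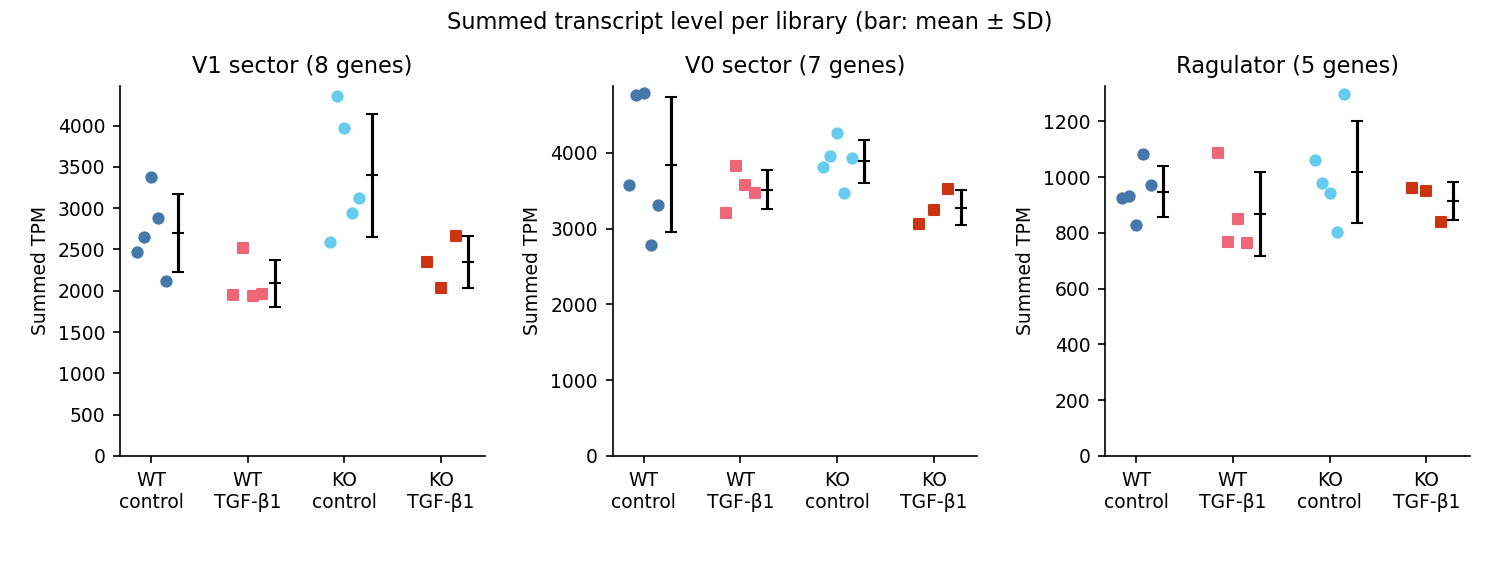
Summed TPM of the V1 sector, the V0 sector and Ragulator in each library (points), with the mean and SD of each group (bars); the axes start at 0. In wild type the V1 sums were 1933 to 2521 TPM with TGF-β1 and 2120 to 3379 TPM in controls. In labelled knockout they were 2032 to 2666 TPM with TGF-β1 and 2586 to 4357 TPM in controls. Treated libraries and controls of a genotype overlap in each panel.

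Flcn (ENSMUSG00000032633) had differences of opposite sign in the 2 genotypes, with wide errors. Wild-type controls were at 40.1, 62.7, 22.3, 86 and 42.5 TPM and treated libraries at 25.5, 16.5, 0.17 and 45 TPM. Labelled-knockout controls were at 20.2, 32.2, 24.4, 41.9 and 29 TPM and treated libraries at 56, 150 and 37.8 TPM. In wild type the groups overlapped and the third treated library was near 0; in labelled knockout 2 of 3 treated libraries stood above the controls. The differences were -1.90 ± 0.84 (SE, unadjusted p = 0.0342, adjusted p = 0.462) and 1.22 ± 0.91 (SE, adjusted p = 0.910).

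The 2 Flcn effects differed by 3.13 ± 1.24 (SE, 95% interval 0.55 to 5.71, unadjusted p = 0.0200, adjusted p = 0.997). Labelled knockout stood above wild type with TGF-β1 by 2.46 ± 0.95 (SE, adjusted p = 0.791). Without the third wild-type TGF-β1 library, which is 1 of the 6 with many moderate genes at 0, these values were 1.99 and 1.32. The wild-type difference was then -0.76, where 22.3 to 86 TPM in controls faced 16.5 to 45 TPM in the remaining 3. Without all 6 of those libraries the values were 1.59 and 0.76.

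Among the GTPases, Rheb alone was at 10 TPM or more in each library. It differed by -0.35 ± 0.40 in wild type and -0.17 ± 0.43 in labelled knockout (SE). Rraga, Rragc and Rragd, the members of the list that form Rag heterodimers, differed by 1.25 ± 1.09, -0.49 ± 1.14 and -0.10 ± 1.25 in wild type (SE). In labelled knockout they differed by 0.95 ± 1.19, -0.19 ± 1.24 and 0.89 ± 1.36 (SE). Rragd, for example, was at 15.3, 4.90, 0, 0.02 and 0 TPM in wild-type controls and 0.01, 1.76, 0.04 and 9.40 TPM with TGF-β1, with values near 0 in both groups.

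Mtor was at 21.1, 25.2, 16.1, 0.57 and 20.6 TPM in wild-type controls and 0, 5.40, 19.6 and 4.57 TPM with TGF-β1. In labelled knockout it was at 16.4, 5.86, 12, 0.16 and 1.44 TPM in controls and 4.14, 14.8 and 21.3 TPM with TGF-β1. The groups overlapped in both, with differences of -1.29 ± 1.15 and 1.19 ± 1.25 (SE). Rptor differed by 0.98 ± 1.25 and -0.77 ± 1.37, and Mlst8 by -0.59 ± 1.5 and -0.77 ± 1.63 (SE). Fold changes of these low genes are understated on the log2(TPM + 1) scale.

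The 95% intervals show what these libraries could resolve. In wild type the interval of the TGF-β1 difference lay within ±1 on the log2 scale for 11 of 30 members, against 3.77% of tested genes. These were Atp6v0b, Atp6v0c, Atp6v0d1, Atp6ap1, Atp6ap2, Atp6v1a, Atp6v1d, Atp6v1e1, Atp6v1f, Lamtor1 and Lamtor5. In labelled knockout it did so for 6 (Atp6v0b, Atp6v0c, Atp6v0d1, Atp6v0e, Atp6ap1 and Atp6v1e1), against 2.94%. For these genes a change beyond 2-fold lay outside the interval. All of them are among the 22 members at 10 TPM or more in each library. That level was reached by 18.2% of tested genes, so the shares of tested genes are not matched for level. The median half-width in wild type was 0.74 for the 22 members at 10 TPM or more throughout and 2.38 for the other 8. In labelled knockout the half-widths were 0.81 and 2.59. For Rragd, Mtor, Rptor and Mlst8 the data therefore could not tell a several-fold change from no change.

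No member was called between genotypes either. In controls 1 member (Atp6v1f) was higher and 0 lower in labelled knockout at an unadjusted p under 0.05, against 3.9% and 1.92% of tested genes. With TGF-β1, 2 members (Atp6v1h and Flcn) were higher and 0 lower, against 3.21% and 2.04%. For the difference of the TGF-β1 effects, 2 members (Flcn and Atp6v1h) were above 0 and 0 below at that threshold, against 2.25% and 2.43%. These last 2 comparisons share the TGF-β1 libraries of both genotypes. No member separated the genotypes without overlap, which 1.06% of tested genes did in controls and 5.49% with TGF-β1. Median differences over the 30 members were 0.08 in controls and 0.08 with TGF-β1, where all tested genes had 0.11 and 0.06.

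Markers of osteoclasts, in which pump genes are high, were also read. The summed TPM of 8 osteoclast markers was 73.1 ± 60.0 in wild-type control, 54.3 ± 40.7 for wild-type TGF-β1, 160 ± 60.0 in labelled-knockout control and 467 ± 83.3 in labelled-knockout TGF-β1 (SD). The total ranged from 20.9 to 155 TPM, from 11.1 to 101 TPM, from 105 to 259 TPM and from 400 to 560 TPM in these groups. Most of it in labelled-knockout TGF-β1 was Dcstamp, a gene for cell fusion, at 390, 515 and 373 TPM against 0.13 TPM or less in wild-type TGF-β1. Dcstamp was the 1 gene of the list called in a comparison (8.63 ± 1.72, SE, adjusted p = 0.0440, labelled knockout against wild type with TGF-β1). Calcr and Mmp9 were at 0 in the 17 libraries, Ctsk reached 1 TPM in 2, and the acid phosphatase gene Acp5 was at 0 in the 3 labelled-knockout TGF-β1 libraries. The part of this list in the pump values was not tested.

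Isoforms of the pump with restricted expression were mostly listed at 0. Of 8 such genes, Atp6v1b1, Atp6v1e2, Atp6v1g3, Atp6v0a4 and Atp6v0e2 were listed at 0 in the 17 libraries. Atp6v0d2, the d isoform known from osteoclasts, was at 46.5 TPM in wild-type control 1, 18.1 TPM in labelled-knockout control 1 and 314 TPM in labelled-knockout control 5, and at 0.04 TPM or less in the other 14 libraries. Labelled-knockout control 5 was also the library with the highest Acp5, at 133 TPM. Atp6v1g2, an isoform known from neurons, reached 74.9 TPM in wild-type control 4 and at most 6.80 TPM elsewhere. Both isoforms passed the filter and neither was called.

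Factors for assembly and regulation of the pump were measured for 9 genes, of which 0 were called in either TGF-β1 comparison. Their median difference was 0.46 in wild type, with 7 of 9 above 0, and -0.46 in labelled knockout, with 2 of 9 above 0. Thus 22.2% and 77.8% lay below 0, against 45.9% and 46.7% of all tested genes. For the difference of the 2 effects, 0 of the 9 had an unadjusted p under 0.05, and the smallest adjusted p was 0.997. Dmxl1 and Dmxl2 were listed at 0 in 3 libraries each. Rogdi, a partner of the complex that reassembles V1 with V0, was at 22.7, 5.03, 24.8, 89.8 and 0 TPM in wild-type controls and 157, 80.6, 34.3 and 57.1 TPM with TGF-β1. The groups overlapped through the fourth control, and the difference was 2.49 ± 0.96 (SE, unadjusted p = 0.0177, adjusted p = 0.401). In labelled knockout it was at 32.5 ± 22.7 and 90.7 ± 46.1 TPM (SD), for a difference of 1.60 ± 1.05 (SE, adjusted p = 0.883). Oxr1 differed by 1.55 ± 1.02 and 1.18 ± 1.11 (SE), and Dmxl2, a scaffold of the same complex as Rogdi, by 0.07 ± 1.49 and -2.61 ± 1.63 (SE).

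Of 23 upstream regulators of mTORC1, 22 were tested and 0 were called, with a median difference of 0.17 in either genotype. Sesn2, a leucine-sensing brake on mTORC1 that stress induces, was at 0, 0, 12.7, 0 and 1.92 TPM in wild-type controls and 30.2, 15.6, 19.6 and 35.3 TPM with TGF-β1. The treated libraries lay above the controls without overlap, in 1 of the 22 tested genes. Of all tested genes 1.8% lay higher without overlap in this comparison. The difference was 3.58 ± 1.19 (SE), with an unadjusted p of 0.00718 and an adjusted p of 0.30. In labelled knockout Sesn2 was at 31.6, 0.03, 0, 0 and 0 TPM in controls and 13.8, 10.1 and 0 TPM with TGF-β1, which overlapped (1.44 ± 1.30, SE, adjusted p = 0.944).

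Tsc2, which turns Rheb off, was at 5.17 ± 5.70 and 15.5 ± 15.3 TPM in wild-type control and TGF-β1, and at 9.09 ± 9.26 and 23.4 ± 7.51 TPM in labelled knockout (SD). Its differences were 1.81 ± 1.10 and 1.96 ± 1.20 (SE, adjusted p = 0.634 and 0.875). Tbc1d7, the third subunit of the TSC complex, differed by -2.14 ± 1.23 and 1.55 ± 1.34 (SE), and Fnip1, which binds folliculin, by 1.66 ± 0.99 and -0.17 ± 1.08 (SE). Rragb reached 1 TPM in 3 libraries, at 8.80, 6.52 and 9.24 TPM, all in wild type.

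Partners of mTORC2 gave 3 tested genes of 4 and 0 calls. Mapkap1 differed by -1.10 ± 1.22 and -1.84 ± 1.32, Rictor by 0.38 ± 1.19 and 0.42 ± 1.30, and Prr5l by 2.29 ± 1.35 and -0.81 ± 1.47 (SE). Substrates of mTORC1 gave 9 tested genes and 0 calls, with medians of 0.13 and -0.44. Lpin1, a lipid phosphatase that mTORC1 keeps out of the nucleus, was at 1.17, 0, 0, 0 and 0 TPM in wild-type controls and 26.1, 2.74, 0 and 6.46 TPM with TGF-β1, with 1 treated library at 0. That difference was 2.17 ± 0.74 (SE, unadjusted p = 0.00828, adjusted p = 0.307), and in labelled knockout it was -0.44 ± 0.80 (SE). Rps6kb1, the S6 kinase, differed by -0.54 ± 1.31 and -2.84 ± 1.43, and Atg13, an autophagy factor, by -1.52 ± 0.97 and -0.42 ± 1.06 (SE).

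Transcription factors of the MiT/TFE family bind the sequence CACGTG and related elements in promoters of lysosomal genes, and mTORC1 holds them in the cytoplasm. Tfe3 had the highest mean of the 4, at 54.3 ± 31.6 and 34.7 ± 23.0 TPM in wild-type control and TGF-β1, and 87.1 ± 45.4 and 46.2 ± 14.2 TPM in labelled knockout (SD). Its differences were -1.02 ± 0.78 and -0.77 ± 0.85 (SE, adjusted p = 0.731 and 0.968). Mitf differed by -1.29 ± 1.28 and 2.16 ± 1.39, Tfeb by 1.73 ± 1.23 and -0.93 ± 1.34, and Tfec by 1.54 ± 1.17 and 1.33 ± 1.28 (SE). None of the 4 factors was called in these comparisons.

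The promoters of the members were searched for that element because the family is known to act on pump genes. RefSeq windows of 300 bases on GRCm38.p6, 250 before and 50 after each start site, were given for 24 of the 30 members. Atp6v0a2, Atp6v1b2, Atp6v1c1, Atp6v1g1, Atp6v1h and Lamtor3 were without one. CACGTG, which reads the same on both strands, was found in 8 of 24 members, or 33.3%, against 8.09% of 27025 genes. TCACGTG, a longer form that contains it, was found on either strand in 8 of 24, or 33.3%, against 4.29%. The palindromic CLEAR-type element, longer by 2 bases on each side than CACGTG, was found in 0 of 24 and in 0.370% of genes. It was counted only as an exact match, so forms of it that differ at a base were not read. The 27025 genes were not limited to those tested here and were not matched to the members for level or base content.

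The 10 matches are shown 5′ to 3′ on the strand of the gene, with CACGTG in capitals, because this element is what the 8 promoters have in common. Positions are counted from the start site to the first base in capitals, with -1 just before the start and 1 at it.
Atp6v0b, chr4:117887348-117887377, minus strand, position -36: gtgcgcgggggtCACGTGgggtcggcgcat
Atp6v0b, chr4:117887330-117887359, minus strand, position -18: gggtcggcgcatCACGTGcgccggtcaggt
Atp6v0d1, chr8:105566050-105566079, minus strand, position -3: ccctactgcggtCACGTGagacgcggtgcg
Atp6v0e, chr17:26676387-26676416, plus strand, position 4: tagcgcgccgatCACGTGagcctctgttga
Atp6v1a, chr16:44139373-44139402, minus strand, position -131: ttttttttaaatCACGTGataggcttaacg
Lamtor1, chr7:101905757-101905786, plus strand, position -68: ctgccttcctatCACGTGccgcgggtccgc
Lamtor4, chr5:138255350-138255379, plus strand, position -120: gcagaaagttaaCACGTGaacagcttttca
Lamtor4, chr5:138255366-138255395, plus strand, position -104: tgaacagcttttCACGTGtaaaccaaacca
Rheb, chr5:24842440-24842469, minus strand, position -96: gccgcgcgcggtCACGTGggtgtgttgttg
Rragc, chr4:123917309-123917338, plus strand, position -112: ggtgattccgggCACGTGatagtaccactt

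Atp6v0b and Lamtor4 held the element at 2 places each, and their paired windows overlap. The second Atp6v0b window and the windows of Atp6v0e and Rheb overlapped annotated exons, and the other 7 overlapped none. The 8 genes span the V1 sector (Atp6v1a), the V0 sector (Atp6v0b, Atp6v0d1 and Atp6v0e), Ragulator (Lamtor1 and Lamtor4) and the GTPases (Rheb and Rragc). Their median levels ran from 23.2 to 863 TPM, inside the range of the members without the element.

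Among the 24 members with a window, median differences were small both with and without CACGTG. With TGF-β1 in wild type the median difference was -0.11 for the 8 with it, 4 of them below 0, and 0.00 for the 16 without it, 8 of them below 0. In labelled knockout the medians were -0.13, with 7 of 8 below 0, and 0.19, with 7 of 16 below 0. Of all tested genes 45.9% lay below 0 in wild type and 46.7% in labelled knockout. The 8 ran from -0.47 to 0.13 in labelled knockout and the 16 from -0.77 to 1.22. The 16 include Rraga, Rragd, Flcn, Mtor, Rptor and Mlst8, whose errors were wide. A link between the element and these differences was not tested. The 6 members without a window are in neither set. Their differences with TGF-β1 ran from -1.48 (Atp6v1h) to 0.28 (Atp6v0a2) in wild type. In labelled knockout they ran from -0.87 (Atp6v1g1) to 0.58 (Atp6v0a2), so the medians depend on which members had a window. A match describes letters in the window and does not show binding.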

How the data were processed

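RNA sequencing of 17 macrophage libraries gave TPM per gene, a unit that corrects for length and sets each library to the same total. The authors deposited TPM from RSEM after FastQC and Trim Galore, on mm9, per the submitters' processing notes; versions are not given in the sources used here. TPM is not a count, so depth and counting errors are unknown. Symbols were found for 32897 of 37620 gene IDs in GENCODE vM21.

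Values were analysed as log2(TPM + 1). Genes with TPM of at least 1 in 3 libraries (12158) were fitted with limma 3.58.1 in R 4.3.3 (lmFit, eBayes with trend), in one fit of the 4 groups without covariates, with 5 contrasts, two-sided tests and Benjamini-Hochberg adjustment over all tested genes. The fit was tested on simulated data. No column was left unused.

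The members and gene lists were chosen with earlier results of these data known. Library values are given for the 6 members with the smallest p in wild type with TGF-β1, the 4 in labelled knockout and the 3 in each other comparison, and others are named by role. From each pathway list up to 3 genes with the smallest p in a TGF-β1 comparison are named, plus Atp6v0d2, Tfeb, Tfe3, Mitf, Tfec, Tsc2 and Rragb. Alternatives changed the pseudocount, filter, scaling, covariates, block and libraries used.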

Additional observations from a re-analysis of the deposited data

Results flagged for a closer look

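In the third wild-type library with TGF-β1, Atp6v1b2 stood at 137 TPM, apart from the other 3 of its group, the nearest of which was at 243 TPM. On the log2(TPM + 1) scale used for the tests the gap was 0.865 of the group's range, above Dixon's 95% critical value for 4 samples. On the TPM scale it was 0.823, just below that value. It was 1 of 30 groups examined on the log2 scale, for 10 genes, and chance flags about 1 in 20 groups. The same library had the near-0 value of Flcn.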

How the results depend on the processing

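No member was called under any of the alternatives run, each library left out in turn included, and the named differences kept their direction. The number of genes called over the whole table moved more. For TGF-β1 in wild type (22), it was 6 without a filter on low values, 11 with the replicate block, 5 without the libraries with over 10% of moderate genes at 0, and 5 with only the compared groups fitted. In labelled knockout (1), it was 4 with a pseudocount of 10, 5 without a filter and 6 after quantile normalization. It was 0 with a pseudocount of 0.1, with the number of detected genes or the cell cycle mean as a covariate, with the block, without those libraries and with only the compared groups. The difference of effects (0) gave 1 without a filter and 1 with the cell cycle covariate. Labelled knockout against wild type gave 8 in controls (18) without those libraries. With TGF-β1 (19) it gave 10 with the block, 7 without those libraries and 3 with only the compared groups. Leaving out each library gave 14 to 34, 0 to 10, 0 to 1, 16 to 23 and 12 to 20 calls in the 5 comparisons, in the order above. The 34 and 14 were without wild-type TGF-β1 libraries 3 and 4, and the 12 without library 2. In labelled knockout the 8 and 10 were without control 1 and treated library 1.

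Without the 6 libraries with many zeros, differences with TGF-β1 shrank to -0.16 for Atp6v1g1 and 0.06 for Atp6v0e in wild type and to -0.50 for Atp6v1g1 and -0.26 for Atp6v1f in labelled knockout. With the cell cycle covariate they were -0.19 for Atp6v1g1 and -0.27 for Atp6v1c1 in wild type. In labelled knockout they were then -0.58, -0.37 and -0.29 for Atp6v1g1, Atp6v1f and Atp6v0c. That covariate did not overlap between treated and control libraries of a genotype, so these values cannot separate it from TGF-β1. The members' median difference with TGF-β1 ran from -0.22 to -0.07 in wild type and from -0.17 to 0.02 in labelled knockout as libraries were left out. After upper-quartile scaling it was -0.18 and -0.28. Quantile normalization moved the median of all genes from 0.09 to -0.06 in wild type and from 0.11 to -0.004 between genotypes in controls. Replicate numbers gave no sign of pairing: deviations of the 7 same-numbered pairs correlated at -0.01 to 0.02, and 2 of 7 fitted best with their own number. With so few libraries and many zeros, this check cannot exclude a pairing, on which the labels are silent. The unknown depth limits the low genes most: zeros of Mlst8 or Rragd could not be told from missed transcripts.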
